A study of Mus musculus with 6 samples.

Results

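The leukotriene and prostaglandin enzymes described here are 9 genes that turn arachidonic acid into lipid messengers. They were chosen around Alox5, whose signal was high in ProT cells, and they comprise Alox5, Alox5ap, Ltc4s, Lta4h, Ptgs1, Ptgs2, Hpgds, Alox15 and Alox12. A probe set linked to 1 gene was at hand for 8 of them, among 19938 genes measured in all, and Ptgs1 is not analysed here. The choice rested on the level of Alox5 in ProT against HSC and DP, so differences that involve ProT are given for all 8 enzymes as a description. The rule of choice did not name the difference between DP and HSC, which was tested. The enzymes were still chosen with earlier results of these data known.

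RNA was profiled on Affymetrix arrays in 3 populations of mouse cells, with 2 arrays each. All of them descended from bone marrow cells transduced with NUP98-HOXB4, a fusion protein that lets blood progenitors expand in culture, so no group lacks it. HSC were such undifferentiated cells expanded with IL6 and SCF. ProT were cells grown with IL7 and with DLL4, a ligand of Notch1, which turns them towards the T lineage. DP were double positive thymocytes that formed after ProT cells had been injected into a Rag2-/- mouse, a host without T and B lymphocytes of its own that keeps other blood cells and thymic stroma. HSC and ProT are thus cultures and DP come from a living host, so stage and surroundings cannot be told apart. The labels do not say how many cultures or host mice lie behind a sample, nor their age or strain. The p-values therefore weigh differences against a spread between 2 arrays that could be technical.

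Phospholipases release arachidonic acid from membranes, and 2 groups of enzymes then compete for it. 5-lipoxygenase, helped by its activating protein, starts the leukotrienes, which drive neutrophil recruitment and, in the cysteinyl form, mast cell and eosinophil responses. Cyclooxygenases start the prostanoids, from which separate synthases make prostaglandin D, prostaglandin E, prostacyclin and thromboxane. In blood these enzymes are best known from granulocytes, mast cells, macrophages and platelets.

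Promoter sequences are shown for the enzymes whose signal differed most between populations and for which the table at hand holds an entry. Alox5 and Hpgds had their highest mean in ProT and Ptgs2 had its highest mean in HSC, so the sequences set a pair of enzymes high in the same population beside one that was not. Each run is the 250 bases before an annotated start, read 5′ to 3′ on the gene's strand, from RefSeq in build GRCm38.p6. The Alox5 window is chr6:116461179-116461428 on the minus strand, that of Hpgds is chr6:65144731-65144980 on the minus strand, and that of Ptgs2 is chr1:150099781-150100030 on the plus strand. Capitals mark 4 sets of letters searched on both strands: the GC box GGGCGG, the RUNX letters TGTGGT, the PU.1 letters GAGGAA and the GATA letters. The last were searched as AGATAA and also as AGATAG, or with another first letter as TGATAA and also as TGATAG.
Alox5: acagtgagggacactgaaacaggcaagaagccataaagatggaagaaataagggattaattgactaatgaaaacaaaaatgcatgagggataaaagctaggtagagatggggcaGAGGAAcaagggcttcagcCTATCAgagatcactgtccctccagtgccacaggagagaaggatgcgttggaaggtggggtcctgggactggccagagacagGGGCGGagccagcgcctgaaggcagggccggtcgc
Hpgds: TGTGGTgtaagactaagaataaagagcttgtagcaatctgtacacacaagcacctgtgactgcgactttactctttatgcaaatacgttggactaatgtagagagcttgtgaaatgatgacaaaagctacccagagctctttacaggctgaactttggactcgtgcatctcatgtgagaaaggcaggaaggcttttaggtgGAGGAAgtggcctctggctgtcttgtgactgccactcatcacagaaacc
Ptgs2: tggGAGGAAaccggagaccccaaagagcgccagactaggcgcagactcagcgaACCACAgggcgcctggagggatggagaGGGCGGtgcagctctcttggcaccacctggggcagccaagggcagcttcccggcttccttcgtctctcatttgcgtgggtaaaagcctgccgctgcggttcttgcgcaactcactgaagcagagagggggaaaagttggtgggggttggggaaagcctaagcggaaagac

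The Alox5 window held the GC box 35 to 30 bases before the start, GATA letters on the other strand 117 to 112 bases before it and PU.1 letters 136 to 131 bases before it. The Hpgds window held PU.1 letters 49 to 44 bases before the start and RUNX letters at its far end, and no GC box or GATA letters. The Ptgs2 window held a GC box, RUNX letters on the other strand and PU.1 letters. PU.1 letters were thus in all 3 printed windows, against 23.1% of 27025 genes with a window of that length. Among the other enzymes with a window, Lta4h and Alox12 also held them and Ltc4s did not. The GC box was in 32.9% of all windows, the GATA letters in 27.1% and the RUNX letters in 14.2%. No 2 of the marked stretches overlap in these windows, and a match of letters is a description of the sequence and not a binding site.

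The members' profiles were of several kinds, as the plot of the enzymes on 6 arrays shows. Alox5 and Hpgds were highest in ProT, Alox5ap, Lta4h and Ptgs2 had their highest means in HSC, and Ltc4s, Alox15 and Alox12 were on every array under 7.17, the median of all gene values. Signals are log2 values on which 1 unit is a doubling, and a signal below 7.17 was not shown to lie above background. A fold whose lower mean lay below 7.17 is therefore given as at least its measured size.

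**Figure D1:**
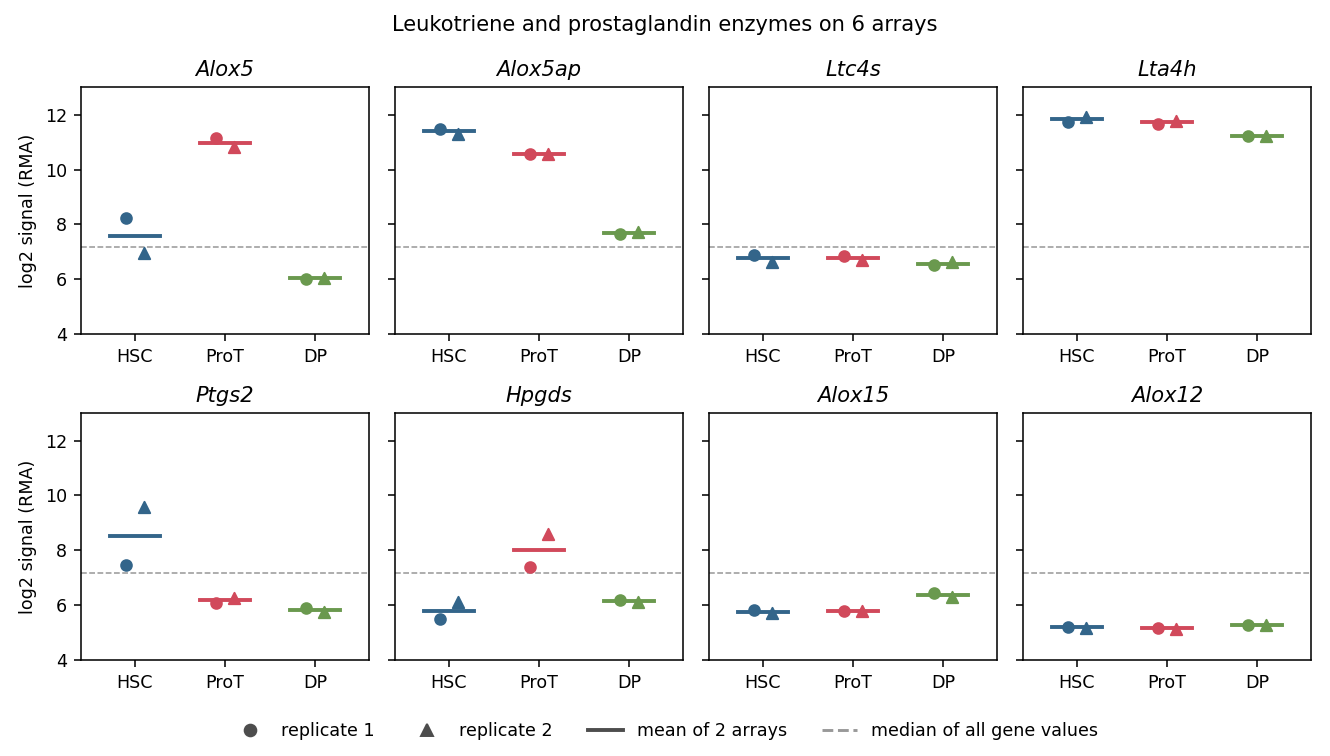
Log2 signal of the 8 measured enzymes (vertical axis) in HSC, ProT and DP (horizontal axis), with 1 point for each array, a bar for the mean of 2 arrays and a dashed line at the median of all gene values, 7.17. Alox5 stands at 10.83 and 11.14 in ProT, while Alox5ap goes from 11.39 in HSC to 7.69 in DP and Ltc4s stays below the line throughout.

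Alox5 encodes 5-lipoxygenase, which makes the leukotriene precursor from arachidonic acid. Its signal was 8.22 and 6.95 in HSC, 11.14 and 10.83 in ProT, and 6.0 and 6.06 in DP. The 3 populations did not overlap, ProT stood highest and DP lowest, and the HSC arrays lay 1.27 apart. The mean was 7.58 ± 0.90 (SD, n = 2) in HSC, 10.99 ± 0.22 in ProT and 6.03 ± 0.05 in DP. ProT thus exceeded HSC by 3.40 ± 0.39 (standard error from limma), a 10.6-fold difference, and exceeded DP at least 31.0-fold. The difference from HSC was 4.04 without HSC replicate 1 and 2.77 without HSC replicate 2. These are the values the enzymes were chosen around.

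Between DP and HSC, Alox5 fell by 1.55 ± 0.39 on the log2 scale, at least 2.93-fold (limma, Benjamini-Hochberg adjusted p = 0.0257). Without either DP array the call was lost while the change kept nearly the same size. The standard error then rose from 0.39 to 0.55, with 1 DP array left and a shared spread that leaned more on the HSC arrays. With DP replicate 1 left out the change was -1.52 (adjusted p = 0.137), and with DP replicate 2 left out it was -1.58 (adjusted p = 0.134), both with limma. The size moved with the HSC arrays, to -0.91 without HSC replicate 1 and to -2.19 without HSC replicate 2. The standard error fell to 0.14 in these fits, as the gap between the HSC arrays no longer entered the shared spread. HSC replicate 2, at 6.95, lay below 7.17 as both DP arrays did, so the change of -0.91 compares signals not shown to lie above background.

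Alox5ap encodes the membrane protein FLAP, which hands arachidonic acid to 5-lipoxygenase. It read 11.49 and 11.30 in HSC, 10.58 and 10.57 in ProT, and 7.66 and 7.73 in DP. The populations did not overlap and followed the order HSC, ProT, DP, so the activating protein was at its highest where Alox5 was not. The difference of ProT from HSC was -0.81 ± 0.09, and that of DP from ProT was -2.88 ± 0.09. From HSC to DP the gene fell by 3.70 ± 0.09 on the log2 scale, a 13-fold fall from 11.39 ± 0.14 to 7.69 ± 0.05 (limma adjusted p = 4.95e-06). In every array it stayed above the median of all gene values.

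Lta4h encodes the hydrolase that makes leukotriene B from the shared precursor, and Ltc4s the synthase that starts the cysteinyl leukotrienes. Lta4h read 11.74 and 11.93 in HSC, 11.66 and 11.78 in ProT, and 11.21 and 11.22 in DP. HSC and ProT overlapped, and DP stood apart at a slightly lower level. From HSC to DP it fell by 0.62 ± 0.09 on the log2 scale, 1.54-fold (limma adjusted p = 0.00345), the smallest fall of a member that passed the test. Ltc4s read 6.88 and 6.64 in HSC, 6.84 and 6.69 in ProT, and 6.52 and 6.61 in DP. None of its arrays reached the median of all gene values, and the difference of DP from HSC, -0.19 ± 0.11, did not pass (limma adjusted p = 0.261).

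Ptgs2 encodes the inducible cyclooxygenase, known as COX-2. Its signal was 7.47 and 9.58 in HSC, 6.08 and 6.27 in ProT, and 5.91 and 5.76 in DP. The HSC arrays were both above the 4 others yet lay 2.11 apart, the widest gap of any member in any population. The HSC mean was 8.52 ± 1.49 (SD, n = 2), and the difference of ProT from it was -2.34 ± 0.63. From HSC to DP the gene fell by 2.69 ± 0.63 on the log2 scale, at least 6.43-fold (limma adjusted p = 0.0196). As for Alox5, the call was lost with either DP array left out, at changes of -2.76 (adjusted p = 0.106) and -2.61 (adjusted p = 0.127) in limma. Without HSC replicate 1 the change was -3.74, and without HSC replicate 2 it was -1.63. For ProT against HSC the difference was then -3.4 and -1.29. The standard error fell from 0.63 to 0.12 in these fits, as the gap between the HSC arrays no longer entered the shared spread. Their smaller error is therefore no gain in support.

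Hpgds encodes the hematopoietic prostaglandin D synthase, an enzyme known from mast cells and some T helper cells. It read 5.50 and 6.10 in HSC, 7.39 and 8.61 in ProT, and 6.18 and 6.12 in DP. Only the ProT arrays were above 7.17, and they differed from each other by 1.22. The ProT mean was 8.0 ± 0.86, at least 4.61-fold above HSC and at least 3.62-fold above DP. On the log2 scale the difference from HSC, 2.2, became 2.81 without ProT replicate 1 and 1.59 without ProT replicate 2, and that of DP from ProT, -1.85, became -2.46 and -1.24. HSC and DP did not differ beyond the error, with DP 0.35 ± 0.40 above HSC (limma adjusted p = 0.582).

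Alox15 and Alox12 encode lipoxygenases that act at other carbons of the fatty acid and are known from macrophages and platelets. Alox15 read 5.82 and 5.71 in HSC, 5.78 and 5.80 in ProT, and 6.43 and 6.31 in DP. From HSC to DP it rose by 0.61 ± 0.08 (limma adjusted p = 0.00242), while all 6 values stayed below the median of all gene values. Alox12 read between 5.14 and 5.29 on all 6 arrays, and its difference between DP and HSC, 0.08 ± 0.07, did not pass (limma adjusted p = 0.431) and had the opposite sign after quantile normalization (-0.01).

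In all, 5 of the 8 enzymes were called by limma between DP and HSC, against 34.9% of all genes. Alox5, Alox5ap, Lta4h and Ptgs2 were lower in DP, 4 of 8 against 18.8% of all genes, and Alox15 was higher, 1 of 8 against 16% of all genes. The median change of the 8 was -0.41, beside 0.02 for all genes. Without either DP array all 5 changes kept their direction, while Alox5 and Ptgs2 lost the call. The share of all genes called was also lower in those fits. Between ProT and HSC 3 of 8 passed the same threshold (14.7% of all genes), and between DP and ProT 5 of 8 did (32.6% of all genes). By direction these were 2 higher and 1 lower (7.85% and 6.9% of all genes), then 1 higher and 4 lower (14.5% and 18.1% of all genes). The choice of the enzymes used these contrasts, so nothing is read from those counts. The arrays of DP and HSC did not overlap for 8 of 8 enzymes (67.9% of all genes), nor did those of DP and ProT (69% of all genes), and those of ProT and HSC did not for 4 of 8 (52.1% of all genes).

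The ProT and DP arrays carried markers of their labels, while the stem and progenitor list set HSC apart from ProT less clearly. Of its 8 markers, 1 was higher and 2 lower in ProT than in HSC (7.85% and 6.9% of all genes). All 5 measured T lineage markers rose from HSC to ProT and all 6 double positive thymocyte markers rose from ProT to DP in limma (14.7% and 32.6% of all genes were called in either direction). Replicate arrays correlated at 0.993 in HSC, 0.995 in ProT and 0.998 in DP, and the median signal of an array was 6.73 to 6.91. Since RNA came from whole populations, fewer cells of a type and less RNA per cell cannot be told apart.

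Genes of other cell types that make eicosanoids also differed between the populations, not all in the direction of these enzymes. Of 12 mast cell and basophil markers, 7 rose and 1 fell from HSC to ProT (7.85% and 6.9% of all genes), and 9 fell and 0 rose from ProT to DP (18.1% and 14.5% of all genes). Their signals summed on the linear scale, replicate 1 first here and in all such sums, to 4362 and 3456 in HSC, 19341 and 19571 in ProT, and 921 and 847 in DP. The sums were thus highest in ProT, as Alox5 and Hpgds were, and 3 of the 12 markers stayed below 7.17 on all arrays. Of 10 neutrophil markers, 10 fell from HSC to ProT (6.9% of all genes), with sums of 44765 and 49521 in HSC, 5236 and 3150 in ProT, and 2167 and 2012 in DP. Whether the neutrophil or the mast cell genes and these enzymes come from the same cells was not tested.

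The monocyte and macrophage list is set beside Alox15 here. Its 10 markers had 5 rises and 5 falls from HSC to DP (16% and 18.8% of all genes). C1qb, a complement subunit made by macrophages, read 6.03 and 6.39 in HSC, 6.60 and 6.07 in ProT, and 9.56 and 9.37 in DP. C1qb thus was higher in DP than in the cultures, as Alox15 was. Csf1r of the same list went the other way, at 10.68 and 11.03 in HSC and 7.28 and 7.16 in DP. The list's summed signal also fell, at 9767 and 12975 in HSC, 4677 and 4276 in ProT, and 3708 and 3482 in DP. Of the 10 markers, 2 stayed below 7.17 throughout. The part of such cells in the Alox15 difference was not tested.

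The HSC arrays differed from each other in 2 of the 8 enzymes by at least 2-fold, Alox5 and Ptgs2, against 1.02% of all genes. They did so in opposite directions, Alox5 being higher in replicate 1 and Ptgs2 in replicate 2. Between the ProT arrays 1 of 8 differed as much, Hpgds, against 0.722% of all genes. All 4 measured megakaryocyte and platelet markers were higher in replicate 1, among them Ppbp at 7.37 and 5.78 and Pf4 at 7.51 and 6.46. Their sums on the linear scale were 1367 and 773 in HSC, 1886 and 1325 in ProT, and 347 and 391 in DP. The eosinophil granule genes Prg2 (8.13 and 6.85) and Epx (6.72 and 6.04) were likewise higher in replicate 1, with 5 of 6 markers of that list on the same side. The 6 eosinophil markers summed to 1601 and 1263 in HSC, 1189 and 1153 in ProT, and 438 and 443 in DP, and 4 of them stayed below 7.17 on all arrays. Replicate 1 was also the higher for 9 of 12 mast cell and basophil markers and 7 of 8 stem and progenitor markers. The same held for 4 of 5 T lineage markers and 4 of 6 double positive thymocyte markers. It was the higher for 1 of 10 monocyte and macrophage markers, 2 of 10 neutrophil markers and 2 of 5 B cell markers. These counts take in small gaps, such as Cd34 at 12.77 and 12.74, and the share of all genes higher in replicate 1 was not counted. The plot of the difference between the HSC arrays shows the lists beside the enzymes, without the T lineage, double positive thymocyte and B cell lists. The part of the marker genes in the enzyme values was not tested.

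**Figure D2:**
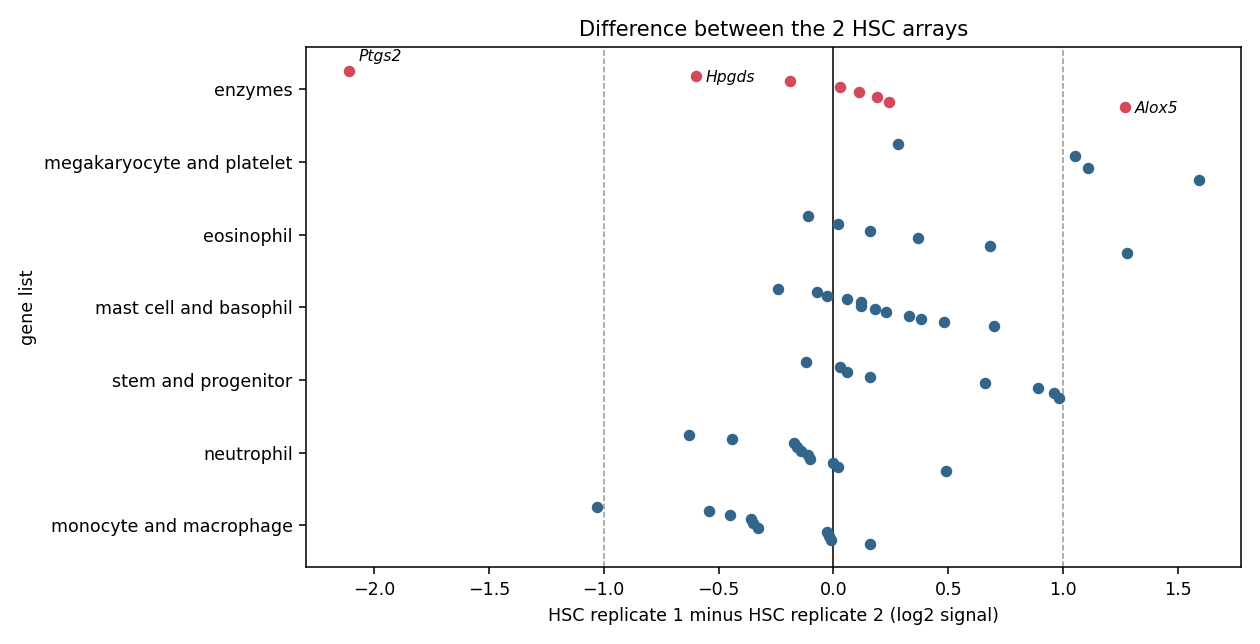
Difference in log2 signal between HSC replicate 1 and HSC replicate 2 (horizontal axis) for each enzyme and each marker gene of the lists shown, with 1 point per gene and gene lists on the vertical axis. Dashed lines mark a 2-fold difference; Alox5 lies to the right with the 4 megakaryocyte and platelet markers, and Ptgs2 lies furthest to the left.

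The genes whose profile over the 6 arrays was closest to that of Alox5, after centring each gene on its mean, were S100a6, Nqo1, Prelid2, Cd200r4 and Nt5e among 18640 genes with a plain symbol. The root mean square difference from Alox5 ran from 0.19 for S100a6 to 0.45 for Nt5e on the log2 scale. S100a6, a small calcium-binding protein, read 7.83 and 6.57 in HSC, 10.70 and 10.45 in ProT, and 6.10 and 5.93 in DP. Nqo1, a quinone reductase, read 7.41 and 6.62 in HSC. The measure takes in all 6 arrays, so likeness in the gap between the HSC arrays is part of the choice. Hpgds, the other enzyme highest in ProT, ranked only 343 by this measure. Ranked by Pearson correlation in place of the difference, 1 of the 5 genes, S100a6, stayed among the nearest 5.

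**Figure D3:**
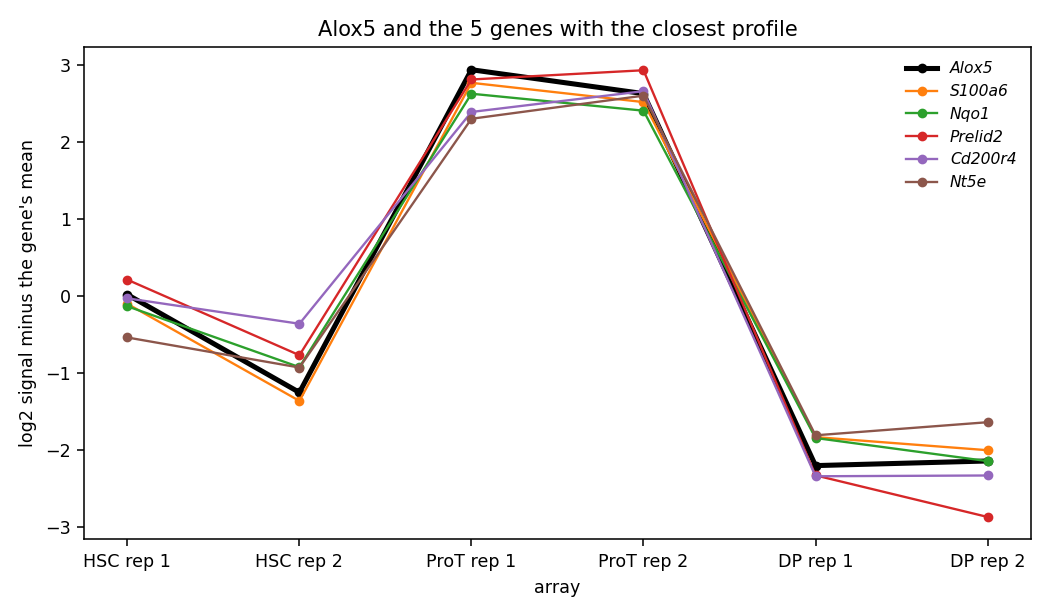
Log2 signal minus each gene's own mean (vertical axis) on the 6 arrays (horizontal axis) for Alox5, in black, and the 5 genes with the closest profile. All 6 lines peak on the ProT arrays and are lowest on the DP arrays, and each is lower in HSC replicate 2 than in HSC replicate 1.

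Around these enzymes, 52 of 57 further genes of the eicosanoid pathway were measured, in 6 groups. Between ProT and HSC 5 were higher and 7 lower in ProT, and between DP and ProT 9 were higher and 20 lower in DP (5 and 22 after quantile normalization). Between DP and HSC 8 were higher and 23 lower in DP, with a median change of -0.19 beside 0.02 for all genes. The called shares were 23.1%, 55.8% and 59.6% of the 52 genes, against 14.7%, 32.6% and 34.9% of all genes, all by limma. The heat map of the other eicosanoid genes shows the lower signals of DP as blue cells in its last columns. Of the 52 genes 35 reached 7.17 on at least 1 array. Fitting only HSC and ProT left 7 calls between them in place of 12 (8.99% of all genes in place of 14.7%). Leaving out either DP array gives that same fit for this comparison, so it is no further check.

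**Figure D4:**
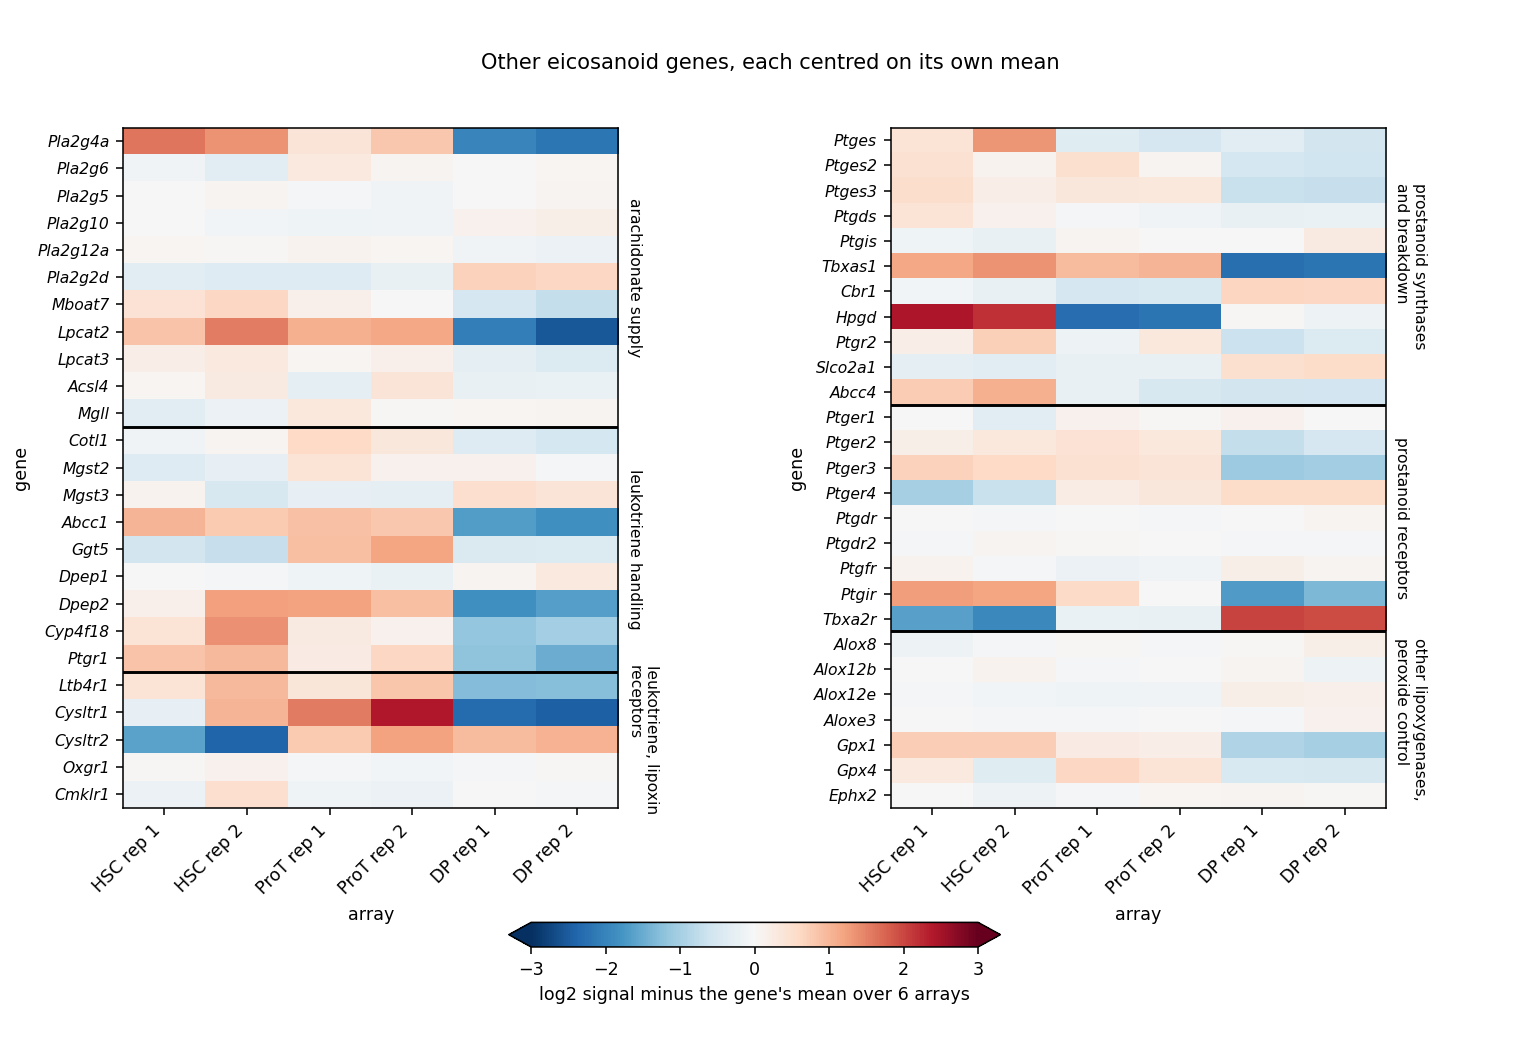
Heat map of the 52 other eicosanoid genes (rows, grouped by role) on the 6 arrays (columns), coloured by log2 signal minus the gene's mean over the arrays. Pla2g4a, Lpcat2, Abcc1 and Tbxas1 are lowest on the DP arrays, Tbxa2r is highest there, and Hpgd is lowest on the ProT arrays.

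Of the 11 genes of arachidonate supply, 4 fell and 1 rose from HSC to DP (18.8% and 16% of all genes). Pla2g4a, the cytosolic phospholipase that releases arachidonic acid for both branches, read 11.09 and 10.82 in HSC, 9.87 and 10.30 in ProT, and 7.49 and 7.31 in DP. It descended at both steps, in the same order as Alox5ap, and fell by 3.55 ± 0.17 on the log2 scale over the whole path (limma adjusted p = 4.66e-05). The smaller first step, -0.87 ± 0.17, passed (limma adjusted p = 0.0233) but not with HSC and ProT fitted alone or without either DP array, HSC replicate 1 or ProT replicate 1, when its adjusted p lay between 0.0594 and 0.0741. Lpcat2, an acyltransferase that also makes platelet-activating factor, fell by 3.41 ± 0.25 on the log2 scale from ProT to DP, 10.6-fold (limma adjusted p = 0.000304). Mboat7, which puts arachidonic acid back into phosphatidylinositol, fell by 1.14 ± 0.12 on the log2 scale from HSC to DP, while Acsl4, which activates the fatty acid, did not pass (-0.36 ± 0.22). Pla2g2d, a secreted phospholipase known from dendritic cells and macrophages, rose by 0.96 ± 0.09 from ProT to DP, to a mean of 6.91 that is still below 7.17.

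Of 9 measured genes that conjugate, convert, export or break down leukotrienes or help their synthesis, 6 fell and 2 rose from ProT to DP (18.1% and 14.5% of all genes). From HSC to DP 5 fell and 1 rose (18.8% and 16% of all genes). The rises from ProT were those of Mgst3, a microsomal glutathione transferase, at 0.70 ± 0.19 (limma adjusted p = 0.034), and of Dpep1, a dipeptidase, at 0.33 ± 0.09 (limma adjusted p = 0.0418), named after their values were seen. Abcc1, the pump that exports leukotriene C, read 10.76 or more on all 4 HSC and ProT arrays, and 8.30 and 8.13 in DP. The DP arrays stood apart from the 4 culture arrays, and the fall from ProT was 6.06-fold, a log2 change of -2.6 ± 0.11 (limma adjusted p = 4.43e-05). Dpep2, a dipeptidase of cysteinyl leukotriene conversion, changed by -2.79 ± 0.34 over the same step. It has 2 probe sets, and their mean changed by -1.38 (limma adjusted p = 0.0192). Ptgr1, which inactivates leukotriene B, changed by -1.77 ± 0.15. Ggt5, the transferase that turns leukotriene C into leukotriene D, was higher in ProT than in both other populations, at 6.84 and 6.70 in HSC, 8.28 and 8.56 in ProT, and 6.94 and 6.98 in DP. It rose by 1.65 ± 0.12 from HSC to ProT (limma adjusted p = 0.000477). Cyp4f18, a hydroxylase of leukotriene B, did not pass at that step (-0.69 ± 0.29), and its change was -1.16 and -0.21 without HSC replicates 1 and 2. It was lower in DP than in ProT (-1.28 ± 0.29, limma adjusted p = 0.0197) and in HSC (-1.97 ± 0.29, limma adjusted p = 0.00335). Its DP mean of 5.92 lay below 7.17. Mgst2, a microsomal enzyme that can conjugate the precursor as Ltc4s does, rose by 0.60 ± 0.12 from HSC to ProT (limma adjusted p = 0.0264). The Mgst2 call was lost with HSC and ProT fitted alone and without HSC replicate 1, ProT replicate 1 or either DP array, at adjusted p between 0.0675 and 0.0987.

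Receptors of the cysteinyl leukotrienes differed between the populations, as the plot of the receptors shows. Cysltr1 read 9.04 and 10.30 in HSC, 10.85 and 11.69 in ProT, and 6.97 and 6.83 in DP. ProT was highest and DP lowest, and the change from ProT to DP was -4.37 ± 0.45, at least 20.7-fold (limma adjusted p = 0.001). The step from HSC to ProT, 1.59 ± 0.45, did not pass (limma adjusted p = 0.0738). It passed in limma with the replicate number as a block (adjusted p = 0.0371) and with dim genes filtered out (adjusted p = 0.038). Without HSC replicates 1 and 2 it was 0.97 and 2.22, and without ProT replicate 2 it was 1.18. Its change of -2.78 ± 0.45 from HSC to DP (limma adjusted p = 0.0048) was lost without DP replicate 2 (adjusted p = 0.0522), and was -3.4 and -2.15 without HSC replicates 1 and 2.

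Cysltr2, the second receptor for these lipids, read 5.42 and 4.62 in HSC, 7.82 and 8.24 in ProT, and 7.98 and 8.06 in DP. It was low only in HSC and rose by 3.01 ± 0.27 from there to ProT, at least 8.08-fold (limma adjusted p = 0.00135). Ltb4r1, the receptor for leukotriene B, read 8.09 and 8.65 in HSC, 8.04 and 8.51 in ProT, and 6.39 and 6.40 in DP. HSC and ProT overlapped, and the change from ProT to DP was -1.88 ± 0.22 (limma adjusted p = 0.00169). Of the 5 measured receptors of this group, Oxgr1 stayed below 7.17 on every array, and Cmklr1 passed in no comparison.

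**Figure D5:**
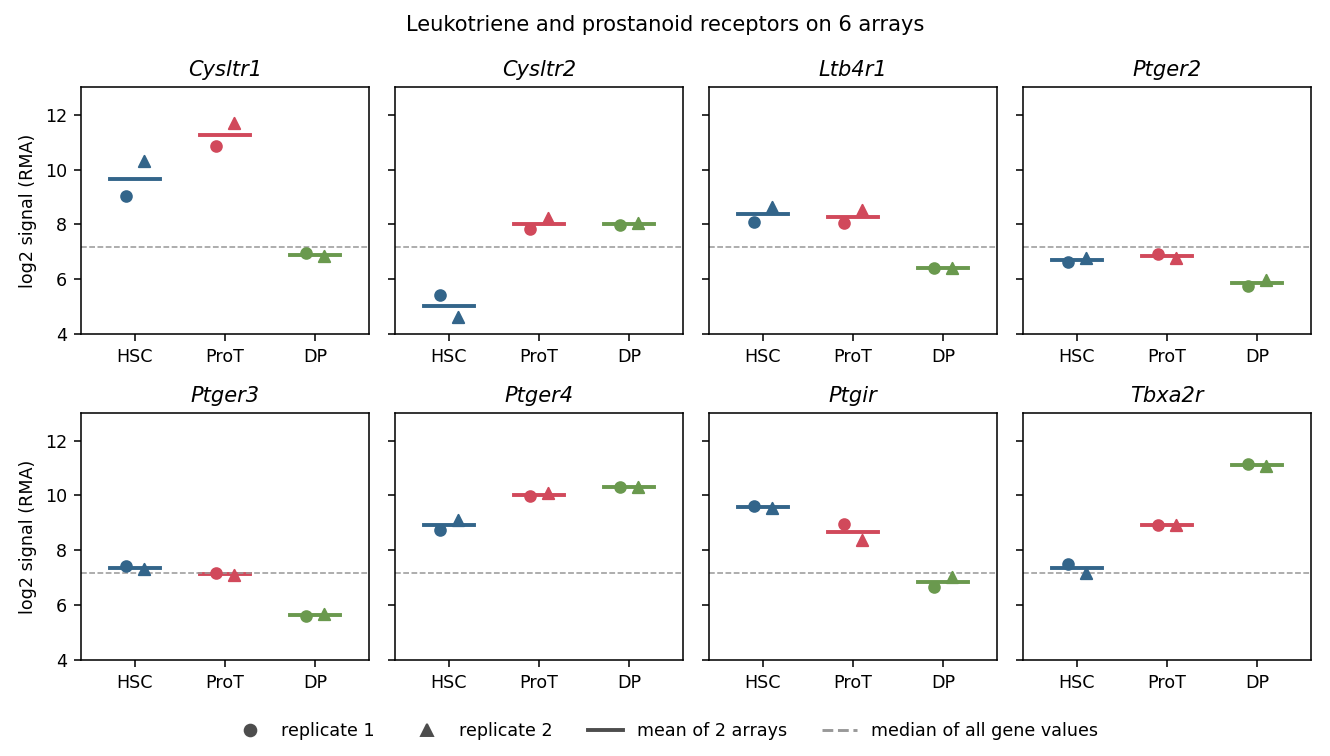
Log2 signal (vertical axis) of 8 leukotriene and prostanoid receptors in HSC, ProT and DP (horizontal axis), with 1 point for each array, a bar for the mean of 2 arrays and a dashed line at 7.17. Cysltr1 drops to 6.97 and 6.83 in DP, while Tbxa2r climbs to 11.15 and 11.09 there.

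Among 11 genes that make, convert or remove prostanoids, 8 fell and 2 rose from HSC to DP (18.8% and 16% of all genes). Ptges, the inducible prostaglandin E synthase that often works with COX-2, read 8.20 and 9.12 in HSC, 7.44 and 7.30 in ProT, and 7.45 and 7.25 in DP. Like Ptgs2 it was higher in HSC than in both other populations and higher in HSC replicate 2. It fell by 1.29 ± 0.29 on the log2 scale from HSC to ProT (limma adjusted p = 0.0355). That call was lost with HSC and ProT fitted alone and without either ProT or either DP array, at adjusted p between 0.107 and 0.117. Tbxas1, the thromboxane synthase, read 9.25 and 9.43 in HSC, 9.04 and 9.11 in ProT, and 5.82 and 5.90 in DP. It was level in the cultures and fell by 3.22 ± 0.09 on the log2 scale from ProT to DP, at least 9.31-fold (limma adjusted p = 1.2e-05).

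Hpgd encodes the dehydrogenase that inactivates prostaglandins, and its name differs from Hpgds, the prostaglandin D synthase, by a letter. It read 10.33 and 10.10 in HSC, 5.62 and 5.71 in ProT, and 7.95 and 7.75 in DP. ProT was lowest, the reverse of Hpgds, and the populations did not overlap. The change from HSC to ProT was -4.55 ± 0.11, at least 23.5-fold (limma adjusted p = 1.14e-05), and the later rise was 2.19 ± 0.11 (limma adjusted p = 8.92e-05). Abcc4, which exports prostaglandins, fell by 1.26 ± 0.13 on the log2 scale from HSC to ProT, and Cbr1, a carbonyl reductase that acts on prostaglandin E, rose by 1.13 ± 0.08 from ProT to DP. Ptgis, the prostacyclin synthase, stayed below 7.17 on every array and did not pass between DP and HSC (0.30 ± 0.11).

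Of 9 prostanoid receptors, 2 were higher and 3 lower in DP than in HSC (16% and 18.8% of all genes). Tbxa2r, the thromboxane receptor, read 7.5 and 7.18 in HSC, 8.92 and 8.91 in ProT, and 11.15 and 11.09 in DP. It climbed at both steps and rose by 3.78 ± 0.12 over the whole path, 13.7-fold (limma adjusted p = 1.21e-05), while the synthase Tbxas1 fell. Ptger4, a receptor for prostaglandin E, read 8.75 and 9.09 in HSC, 9.98 and 10.08 in ProT, and 10.29 and 10.30 in DP, and rose by 1.11 ± 0.12 from HSC to ProT (limma adjusted p = 0.00272). Ptgir, the prostacyclin receptor, read 9.62 and 9.55 in HSC, 8.95 and 8.38 in ProT, and 6.67 and 7.02 in DP. It descended from step to step and fell by 2.75 ± 0.21 on the log2 scale from HSC to DP (limma adjusted p = 0.000244). Its first step of -0.92 ± 0.21 passed (limma adjusted p = 0.0368) and was lost with the replicate block, with HSC and ProT fitted alone and without either HSC array, ProT replicate 2 or either DP array, at adjusted p between 0.0552 and 0.094. Ptger3, a further prostaglandin E receptor, fell by 1.5 ± 0.08 on the log2 scale from ProT to DP. Ptgdr and Ptgdr2, the receptors for the product of Hpgds, lay below 7.17 on every array.

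Other lipoxygenases were low throughout, since Alox8, Alox12b, Alox12e and Aloxe3 all stayed below 7.17 on the 6 arrays. Alox12e, known from epidermis, was called in DP against ProT at 0.28 ± 0.07 (limma adjusted p = 0.0258). That call was lost without any 1 of the ProT or DP arrays and after quantile normalization (0.11, adjusted p = 0.301). Gpx1 and Gpx4, glutathione peroxidases that remove the lipid peroxides lipoxygenases need, were well above 7.17. Gpx1 read 12.92 and 12.92 in HSC, 12.42 and 12.38 in ProT, and 11.28 and 11.19 in DP, and fell by 1.69 ± 0.07 on the log2 scale from HSC to DP (limma adjusted p = 3.36e-05). Gpx4 fell by 0.98 ± 0.21 on the log2 scale from ProT to DP (limma adjusted p = 0.0165), a call lost without ProT replicate 1 or either DP array (adjusted p between 0.0796 and 0.112).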

How the data were processed

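The values deposited by the authors are log2 signals for 35556 probe sets on 6 arrays, for which the submitters' processing notes name RMA, a method that corrects, normalizes and summarises probe signals, and Partek. Their settings are not stated there, and scanner files were not used here. A platform annotation linked 21789 probe sets to 1 gene. The highest-mean probe set stood for each of 19938 genes, with no filter on signal, and every enzyme had 1 probe set.

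One limma 3.58.1 fit (R 4.3.3) over all 6 arrays with a mean per population and eBayes gave changes, standard errors and p-values, adjusted by Benjamini-Hochberg over all genes and called under 0.05. The code was tested on simulated data. The members and lists were chosen with earlier results of these data known. Other pathway genes are named by rule: up to 3 called genes whose populations do not overlap and 1 that did not pass, per group and comparison, by size, with those singled out as low, or shown for contrast, added after their values were seen. Neighbours of Alox5 were ranked by root mean square difference. The fit was repeated with the replicate number as a block, after quantile normalization or median centring, and with the mean of probe sets, a filter on dim genes, a trended robust prior, smaller fits, a stricter threshold and leaving out each array. The replicate numbers did not pair the samples (correlations of deviations -0.04 to 0.06). Promoters came from RefSeq. Tables were prepared with Python 3.11.15, pandas 2.3.3 and numpy 2.4.6. The number of arrays limits the precision.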

Additional observations from a re-analysis of the deposited data

How the results depend on the processing

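Calls of the enzymes between DP and HSC stayed at 5 under the replicate block, quantile normalization, median centring, the mean of probe sets, the trended robust prior and the fit of those populations alone. They were 3 at an adjusted p under 0.01, and 4 of 5 enzymes under the filter on dim genes, which removes 3 of them. Leaving out an array gave 3 to 5 enzymes between DP and HSC, 3 to 5 between DP and ProT and 2 to 4 between ProT and HSC. The lone array left is assumed to vary like the other populations. For the other eicosanoid genes the calls between ProT and HSC were 7 with only these populations fitted and 7 at an adjusted p under 0.01, and 7 to 14 with an array left out. The ranges with an array left out were 20 to 32 between DP and ProT and 23 to 32 between DP and HSC. With the replicate block, which the samples' deviations do not bear out as a pairing, 11, 28 and 30 of these genes were called, in place of 12, 29 and 31. Between DP and ProT, 29 calls (9 higher and 20 lower) became 27 (5 higher and 22 lower) under quantile normalization.

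Values that reversed had not passed the test: Alox12 between DP and HSC (-0.01), Cmklr1 (-0.04) and Alox8 (-0.07) between DP and ProT after quantile normalization, Acsl4 between DP and ProT without ProT replicate 2 (0.07), and Cmklr1 between DP and HSC without HSC replicate 2 (0.15). With 1 array left out these ran from -0.6 to 0.07 for Acsl4 between DP and ProT and from -0.51 to 0.15 for Cmklr1 between DP and HSC. The cause was not tested. Of the other tested changes of named genes under an alternative, 832 kept their direction and side of the threshold, 44 lost the call and 31 gained one. These counts hold repeats, as leaving out an array of the third population gives the same fit as the compared populations alone. Of the enzymes' differences that involve ProT, described without a test, 12 moved by more than the spread (SD) between replicates. All 12 were under quantile normalization or median centring. No other refit could move a difference by more than that spread, so the 190 within it do not measure stability. Signals below 7.17 limit what can be said of Ltc4s, Alox15 and Alox12.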
